A study of Mus musculus with 6 samples.

Results

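Committed precursors of oligodendrocytes were picked out of single-nucleus RNA data by 3 genes that are read at this stage, Gpr17, Neu4 and Bmp4. They were chosen by raw counts of unique molecular identifiers (UMIs, each 1 RNA molecule) per nucleus. A member held at least 3 UMIs of Gpr17, Neu4 and Bmp4 together, at least 3 of Tnr and Bcas1, at most 1 of the division genes Top2a and Mki67, at most 2 of the myelin genes Mog and Mag, and at most 1 of the meningeal gene Slc6a13. Of 60724 nuclei kept in 6 libraries, 2775 met this rule. The 10 genes of the rule are therefore given as a description, with no test.

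The libraries came from C57BL/6 S-56 mouse brains, without olfactory bulbs and cerebellum, in a model of post-hemorrhagic hydrocephalus. Pups were injected at P7 into the right lateral ventricle, either with lysophosphatidic acid (LPA), a signaling lipid of blood, or with its vehicle, a solution of bovine serum albumin, and tissue was taken at P15. The LPA concentration of these libraries is not given in the labels. Nuclei without the neuronal protein NeuN were sorted, so neurons were largely removed, and the 3 libraries per group were loaded for 10000 nuclei each. They are labelled as replicates, and the study plots values of such libraries as individual mice, while the labels name neither animals nor litters. All mice had the same surgery and injected volume.

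Oligodendrocytes arise from precursor cells that divide and carry the receptor Pdgfra. A precursor that commits leaves the cell cycle and passes through a brief state marked by the receptor Gpr17, and then becomes a newly formed oligodendrocyte that reads Enpp6 and begins to make myelin. Gpr17 is a G protein-coupled receptor that is lost before myelination, Neu4 is a sialidase, and Bmp4 is a secreted ligand of the BMP pathway. Bcas1 is a marker of early myelin-forming cells, and Tnr encodes tenascin-R of the extracellular matrix. In the GRCm38 annotation (GENCODE M21), Neu4 lies on chromosome 1 from 94020451 to 94028334, Tnr on chromosome 1 from 159523769 to 159931729, Bcas1 on chromosome 2 from 170346991 to 170427845, and Bmp4 on chromosome 14 from 46383520 to 46390669. UMIs were counted over whole genes, introns included, and carry no length correction, so levels below are compared between stages or groups for the same gene.

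The LPA libraries gave 496, 629 and 480 committed precursors and the vehicle libraries 362, 442 and 366. Their summed depth was 3377857, 3699096 and 2971586 UMIs in LPA and 1865217, 2399158 and 1613106 UMIs in vehicle. A committed precursor held a median of 5014.5, 4605 and 4694 UMIs in the LPA libraries and 3901, 3924.5 and 3581.5 in the vehicle libraries. Thus all 3 LPA libraries were deeper in these nuclei than all 3 vehicle libraries, while the medians over all nuclei kept, 4751, 4173.5 and 4838 against 4742.5, 4281 and 3860, overlapped. No member's barcode was a member's barcode in another library, and pairs of libraries shared 20 to 41 barcodes among the nuclei kept. Scrublet, which scores nuclei that look like 2 in a droplet, called 32.7%, 28.9% and 27.5% of members in LPA and 22.9%, 27.8% and 26.0% in vehicle. In addition, 8.47%, 5.56% and 3.96% of members in LPA and 2.76%, 6.11% and 1.91% in vehicle also met a gate for microglia and macrophages (at least 4 UMIs of Csf1r, Inpp5d and P2ry12). Members called by Scrublet were kept in the main counts and left out in an alternative.

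The markers of the label, Gpr17, Neu4, Bmp4, Bcas1 and Tnr, are all genes of the rule. The other stages, apart from dividing precursor cells, were limited to at most 2 UMIs of Gpr17, Neu4 and Bmp4. The levels of these markers below were set by these limits and do not test the label. Gpr17 was read at 482 ± 81.7 CPM (UMIs of the gene per 1000000 UMIs of the nuclei in the gate, mean ± SD, n = 6 libraries) in committed precursors, against 99.5 in precursor cells, 54.7 in newly formed oligodendrocytes and 36.1 in myelinating oligodendrocytes. Neu4 stood at 377 ± 51.1 CPM, against 80.4, 16.3 and 4.20 CPM in the same 3 stages. Bmp4 stood at 206 ± 29.2 CPM, against 7.86, 9.5 and 3.38 CPM. In nuclei of the microglial gate, which should not read these genes, the levels were 65.9 CPM for Gpr17, 43.4 CPM for Neu4 and 30.7 CPM for Bmp4. That gate set no limit on these genes. It also took in 42, 35 and 19 members in LPA and 10, 27 and 7 in vehicle, whose UMIs count in these levels. Levels of that size may thus be background, from free RNA or from 2 nuclei in a droplet, which were not told apart. Tnr and Bcas1 stood at 5122 and 2480 CPM, against 2298 and 433 CPM in precursor cells and 2424 and 1819 CPM in newly formed oligodendrocytes. The stages used for comparison were gates on the same counts. Precursor cells (2416 nuclei) had at least 3 UMIs of Pdgfra and Cspg4, dividing precursor cells (174 nuclei) also had at least 2 of Top2a and Mki67, newly formed oligodendrocytes (2751 nuclei) had at least 3 of Enpp6, and myelinating oligodendrocytes (8139 nuclei) had at least 3 of Mog and Mag, with upper limits on genes of other stages. Together with the members they make the 16255 lineage nuclei.

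Most members carried Gpr17 and Neu4 together, and about every other one carried Bmp4. UMIs of all 3 genes were found in 38.8% of members, and of Gpr17 and Neu4 without Bmp4 in 38.0%. Gpr17 was seen without the other genes in 6.63%, Neu4 alone in 4.32% and Bmp4 alone in 1.05%. By library, Gpr17 was found in 85.7% to 93.4% of members, Neu4 in 84.6% to 87.4% and Bmp4 in 45.6% to 56.1%. The median sum of the 3 genes was 5 UMIs in 5 libraries and 4 in vehicle 2, so many members lay close to the limit of the rule. Exactly 3 UMIs were held by 124, 147 and 123 members in LPA and 86, 136 and 100 in vehicle. Just outside, with 2 UMIs, were 194, 237 and 196 nuclei in LPA and 115, 218 and 155 in vehicle. Across the limit the levels changed by degrees. The kinase gene Fyn stood at 1225 CPM in nuclei with 3 UMIs and 815 CPM in those with 2, Arhgap24 at 554 and 334 CPM, and Pdgfra at 465 and 481 CPM.

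Of the rule's genes, those required for membership overlapped between the groups. Gpr17, scaled with TMM factors, stood at 400, 457 and 445 CPM in LPA and 611, 443 and 559 CPM in vehicle, so the lowest vehicle library lay within the LPA range. Neu4 stood at 304, 376 and 351 CPM in LPA and 426, 373 and 449 CPM in vehicle, and here too the groups overlapped. Bmp4 stood at 175, 229 and 192 CPM in LPA and 200, 190 and 260 CPM in vehicle. Since every member needs 3 UMIs of these genes whatever its depth, a shallower nucleus enters the gate only at a higher CPM. Tnr ranged from 4857 to 5329 CPM in LPA and from 4478 to 6031 CPM in vehicle, and Bcas1 from 2180 to 2681 CPM and from 2059 to 3065 CPM. Of the genes that the rule limits, Slc6a13 did not overlap and was lower in LPA, at 2.95, 2.98 and 3.41 CPM against 6.86, 5.78 and 11.3 CPM in vehicle. The rule allows at most 1 UMI of Slc6a13 per member, and the part of depth in this difference was not tested.

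Outside the rule, a fixed list of genes of committed precursors was split over the stages. Of 23 at 10 CPM or more, 8 were highest in committed precursors, 10 in newly formed oligodendrocytes and 5 in precursor cells, so most of the list did not peak here. A small group of genes, picked for it from all genes, did. Of 4029 genes with at least 50 CPM in committed precursors, 1249 were higher there than in both neighboring stages, and 27 at least 2-fold higher. Arhgap24, a GTPase-activating protein, led with 1138 ± 161 CPM (n = 6 libraries) against 209 CPM in precursor cells and 126 CPM in newly formed oligodendrocytes. Its ratio to the higher neighbor was 5.45 and ranged from 4.95 to 6.91 between libraries. Nkx2-2, a transcription factor of oligodendrocyte differentiation, followed with 130 ± 14.6 CPM against 42.3 and 12.8 CPM. The other genes of the leading 15 were Gm13052, Lims2, Fndc9, Tbc1d8, Cyfip2, Cd9, Sh3rf1, Igsf9b, Csgalnact1, Ppfibp1, Fsd1l, Fam163a and Chd3, and all 15 were higher than in both neighbors in each of the 6 libraries. Gpr17, a gene of the rule, lies within Lims2 on the opposite strand, and Fndc9 within Cyfip2 on the opposite strand. Whether reads of one gene were counted for the other was not tested. Cd9, a tetraspanin of the cell membrane, stood at 325 CPM against 123 and 55.8 CPM. Cyfip2, a part of the WAVE complex that drives actin branching, stood at 504 CPM against 159 and 186 CPM. Csgalnact1, which starts chondroitin sulfate chains, stood at 541 CPM against 221 and 162 CPM, and Chd3, a chromatin remodeler, at 656 CPM against 209 and 296 CPM. These stages were cut on counts of the same nuclei, so the ratios are a description.

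**Figure D1:**
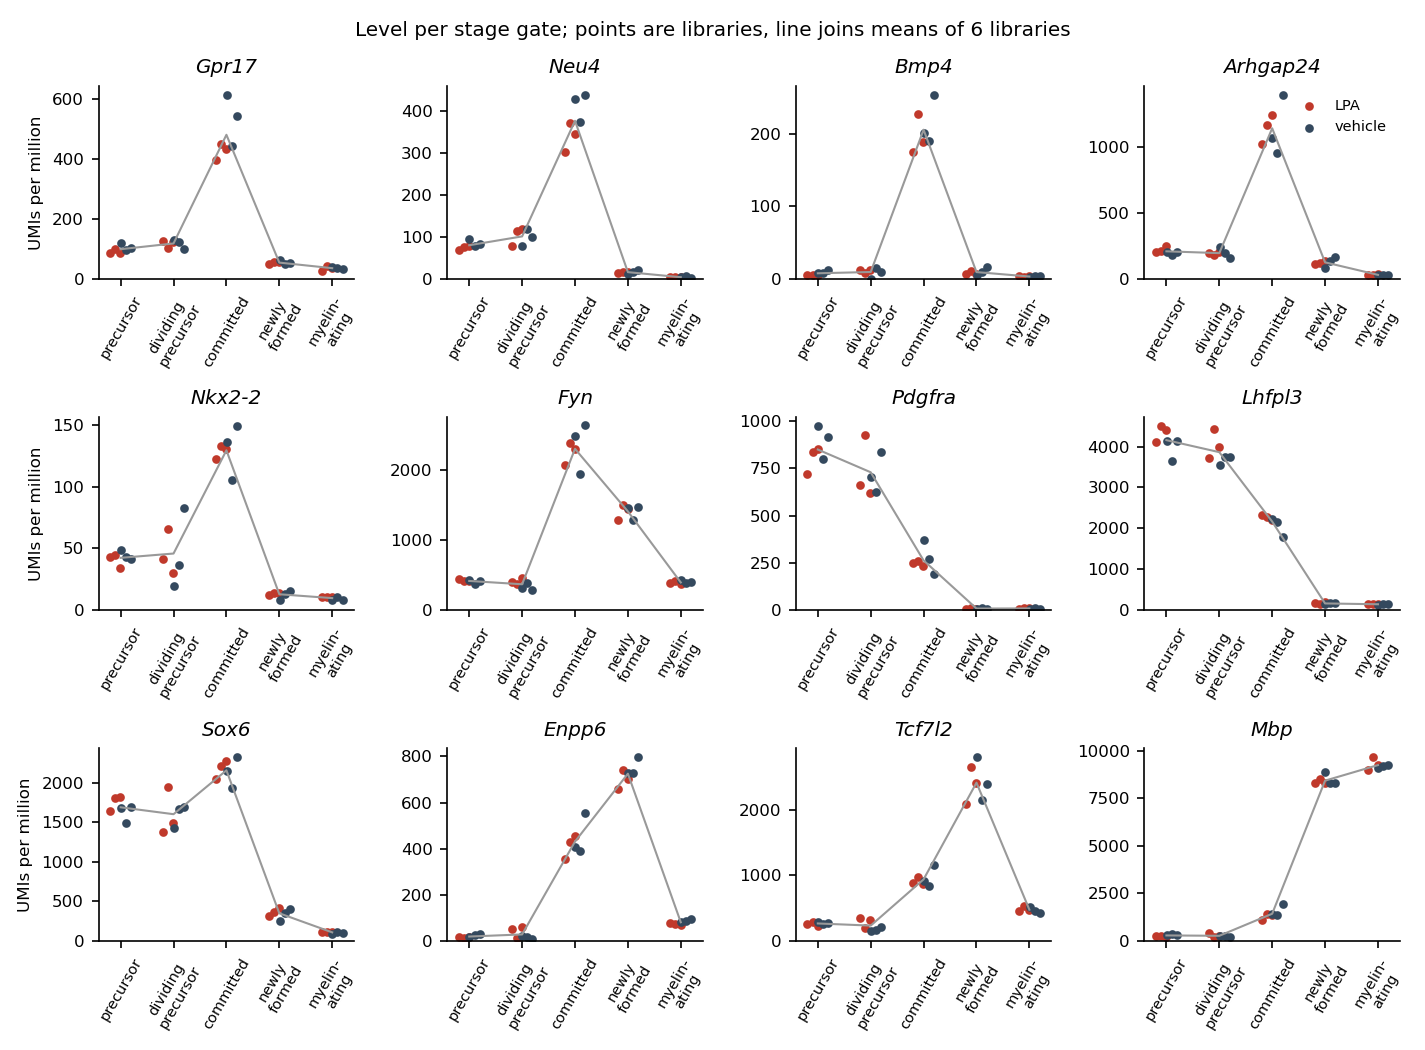
CPM (linear axis from 0) for 12 genes in 5 stage gates of the oligodendrocyte lineage. Points are the 6 libraries (LPA red, vehicle dark), and the line joins their means. Gpr17, Neu4, Bmp4, Arhgap24, Nkx2-2 and Fyn are highest in committed precursors, Pdgfra and Lhfpl3 fall through them, and Enpp6, Tcf7l2 and Mbp rise through them.

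The members also held genes of the stages on either side. Of 19 precursor genes at 10 CPM or more, 16 lay between the 2 neighboring stages and fell along the lineage. The list includes Pdgfra and Cspg4, which the precursor gate required, so their place was set by the gates. Lhfpl3 stood at 4157 CPM in precursor cells, 2164 CPM in committed precursors and 160 CPM in newly formed oligodendrocytes. Ptprz1, a receptor phosphatase and proteoglycan, stood at 1914, 1166 and 241 CPM, and Pdgfra, on which the precursor gate rests, at 850, 262 and 7.55 CPM. Others stood about as high as in precursor cells or higher. Sox6, a transcription factor that holds back differentiation, stood at 1688, 2155 and 350 CPM, and Dscam, an adhesion molecule, at 2472, 2456 and 710 CPM.

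Genes of newly formed oligodendrocytes had begun to rise, and 17 of 20 lay between the neighbors in rising order. The list includes Enpp6, which the gate of newly formed oligodendrocytes required, so its place was set by the gates. Tcf7l2, a transcription factor of the Wnt pathway that is read in new oligodendrocytes, stood at 268, 941 and 2418 CPM, and Tns3, a focal adhesion protein, at 289, 1300 and 1640 CPM. Itpr2, a calcium channel of the endoplasmic reticulum, was already at 1211 CPM against 507 CPM in precursor cells and 1372 CPM in newly formed oligodendrocytes. Fyn, the kinase that starts local Mbp translation, was higher in committed precursors (2302 CPM) than before (415 CPM) or after (1408 CPM), and so was Ust, a sulfotransferase of chondroitin and dermatan sulfate, at 1657 CPM against 304 and 843 CPM.

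Myelin genes were lower in the members than in newly formed oligodendrocytes. All 22 genes of the list were highest in newly formed oligodendrocytes among the 3 stages, and 12 of them lay between the neighbors in the members. The rule and the precursor gate allowed at most 2 UMIs of Mog and Mag, while the gate of newly formed oligodendrocytes had no such limit. The gates thus favored this order, and it is a description. Mbp stood at 1431 CPM against 291 and 8428 CPM. Nfasc, an adhesion molecule that helps to build paranodes, stood at 1868 CPM against 349 and 4795 CPM. Mobp, a late myelin gene, stood at 105 CPM against 129 and 2231 CPM, so it had not risen. Mbp reached 2256 CPM in nuclei of the microglial gate, above the members, while Nfasc stood there at 1156 CPM, below the members. Precursor cells stood below the microglial gate, at 291 CPM of Mbp. They were limited to at most 2 UMIs of Mog and Mag, and the microglial gate was not, so the 2 levels are not directly comparable. How much of the Mbp in committed precursors is their own RNA was not tested. Genes of cholesterol synthesis, which myelin membranes need, were in all 25 cases highest in newly formed oligodendrocytes.

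Receptors and channels of precursor cells mostly fell. Of 36 genes for glutamate and GABA receptors and ion channels, 27 lay between the neighbors in falling order. Among transcription factors the order was mixed, with 9 of 33 highest in committed precursors, 14 in precursor cells and 10 in newly formed oligodendrocytes. Zeb2, which blocks BMP signaling, rose from 608 to 1545 and 1923 CPM, Myrf, the activator of myelin genes, from 14.1 to 71.0 and 190 CPM, while Hes5, a Notch target, stood at 89.1, 52.6 and 16.3 CPM. Of the BMP pathway, the members read the ligand gene Bmp4, and the receptor genes Bmpr1a and Bmpr2 stood at 122 and 140 CPM against 140 and 153 CPM in precursor cells.

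Committed precursors were not uniform. Each member was thinned to 2000 UMIs, so that the counts compared had the same depth, and 2744 members were deep enough. The rule had been applied to the full counts before thinning, so depth could still bear on which nuclei were members. Of these, 26.5% held UMIs of Pdgfra without Enpp6, 39.9% of Enpp6 without Pdgfra, 3.28% of both and 30.3% of neither. The share with Pdgfra alone was 29.2%, 24.3% and 25.5% in LPA and 34.5%, 29.2% and 17.2% in vehicle, and the share with Enpp6 alone was 37.1%, 37.9% and 44.1% in LPA and 38.1%, 38.2% and 45.4% in vehicle. For Pdgfra alone the vehicle libraries took in the whole range of the LPA libraries, and for Enpp6 alone the groups overlapped. As a background, 7.93% to 13.5% of thinned nuclei of the microglial gate also held a UMI of Pdgfra and 8.54% to 12.7% one of Enpp6. Scrublet called 38.0% to 51.5% of the nuclei of that gate.

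The Pdgfra and the Enpp6 members differed in many other genes. Gpr17 stood at 509 CPM (367 to 597 over 6 libraries) in members with Pdgfra and 689 CPM (568 to 864) in members with Enpp6. Bmp4 stood at 48.1 CPM (32.5 to 69.1 over 6 libraries) in members with Pdgfra and 404 CPM (343 to 445) in members with Enpp6. Neu4 differed little, at 483 CPM (377 to 621) and 516 CPM (456 to 573). Fyn stood at 590 and 4518 CPM, Arhgap24 at 421 and 2092 CPM, Mbp at 329 and 3044 CPM, and Lhfpl3 at 4862 and 1089 CPM. Of all genes with 200 CPM or more in either class, the largest ratios, picked after their values were seen, were toward Pdgfra for Kcnip3, a calcium sensor of potassium channels (602 against 36.7 CPM), and toward Enpp6 for the transcript Gm13187 (6.93 against 253 CPM), followed by St18, a zinc finger transcription factor (121 against 2038 CPM). For these 3 genes no library of one class reached into the range of the other. Since every member needs 3 UMIs of Gpr17, Neu4 and Bmp4 together, members low in Bmp4 had to carry the others. These classes were cut on the nuclei that are compared, and no test was made.

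**Figure D2:**
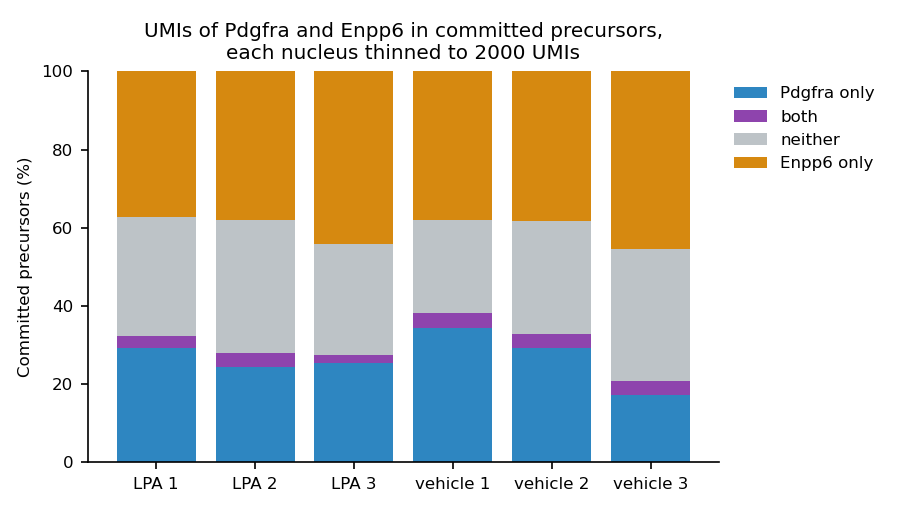
Share of committed precursors (%) in each library with UMIs of Pdgfra only, of both genes, of neither, and of Enpp6 only, after thinning each nucleus to 2000 UMIs. Pdgfra alone ranges from 17.2% (vehicle 3) to 34.5% (vehicle 1), and Enpp6 alone from 37.1% to 45.4%.

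The first question between the groups was how many committed precursors the brains held at P15. They made up 5.82%, 6.13% and 5.27% of nuclei kept in LPA and 4.47%, 3.56% and 2.97% in vehicle, that is 5.74% ± 0.432 against 3.67% ± 0.754 (SD, n = 3 each). All LPA libraries lay above all vehicle libraries, a ratio of means of 1.57. Among lineage nuclei their share was 22.1%, 23.0% and 20.2% in LPA and 15.7%, 12.6% and 11.8% in vehicle, and the groups did not overlap. With 3 libraries per group the two-sided exact permutation test cannot go below p = 0.1, its value for both shares (0.133 after adjustment over 4 such measures), so no difference in share can pass 0.05.

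Depth changed this picture in part. When each nucleus was thinned to 2000 UMIs before the rule was applied, the share among nuclei kept was 2.72%, 3.61% and 2.85% in LPA and 3.03%, 2.00% and 2.08% in vehicle, so vehicle 1 lay above LPA 1 and LPA 3 (exact permutation p = 0.3). At 3000 UMIs per nucleus this share did not overlap, at 4.56%, 5.57% and 4.76% in LPA and 3.90%, 2.64% and 2.395% in vehicle. Nor did it with 2000 UMIs and a limit of 2 UMIs of Gpr17, Neu4 and Bmp4, at 4.99% to 6.23% in LPA and 3.26% to 4.98% in vehicle. Thinning to 2000 UMIs left 7755, 9114 and 8309 nuclei deep enough in LPA and 7431, 11047 and 10764 in vehicle. Among lineage nuclei the thinned share was 13.02%, 15.3% and 12.9% in LPA and 11.2%, 7.72% and 8.78% in vehicle, still without overlap. At 1000 UMIs per nucleus both shares overlapped, the share among nuclei kept at 0.8% to 1.28% in LPA and 0.675% to 1.22% in vehicle (exact permutation p = 0.5) and the share of lineage nuclei at 8.88% to 13.1% in LPA and 5.71% to 9.11% in vehicle. The depths of 1000 and 3000 UMIs and the lower limit were added after the data had been seen. Without Scrublet calls the share among nuclei kept was 4.87% ± 0.295 in LPA and 3.36% ± 0.786 in vehicle (SD, n = 3 each), with no overlap.

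The neighboring stages put the shares in place. For every 100 precursor cells there were 113, 108 and 115 committed precursors in LPA and 150, 98.4 and 128 in vehicle, and the groups overlapped (exact permutation p = 0.5). Precursor cells themselves made up 5.14% ± 0.538 of nuclei kept in LPA and 2.97% ± 0.652 in vehicle (SD, n = 3 each), again without overlap. For every 100 committed precursors there were 71.0, 71.9 and 92.1 newly formed oligodendrocytes in LPA and 112, 137 and 136 in vehicle. Newly formed oligodendrocytes themselves made up 4.46% ± 0.367 of nuclei kept in LPA and 4.63% ± 0.525 in vehicle (SD, n = 3 each, exact permutation p = 0.7), with overlap. After thinning to 2000 UMIs the direction turned, to 1.98% in LPA and 1.73% in vehicle (exact permutation p = 0.3), with overlap. Among lineage nuclei this stage made up 16.9% in both groups, and after that thinning 8.88% in LPA and 6.77% in vehicle, without overlap. The ratio to committed precursors was lower in all LPA libraries (exact permutation p = 0.1), but after thinning to 2000 UMIs it stood at 63.5, 62.6 and 67.9 in LPA and 55.1, 97.7 and 75.4 in vehicle, where the groups overlapped (exact permutation p = 0.5). At 3000 UMIs they did not overlap, at 67.9, 69.95 and 70.6 in LPA and 85.4, 140.1 and 127 in vehicle. At 1000 UMIs the means were 63.8 ± 2.84 in LPA and 64.3 ± 10.99 in vehicle (SD, n = 3 each, ratio 0.993, exact permutation p = 1), and with 2000 UMIs and a limit of 2 UMIs 29.3 and 36.9 (exact permutation p = 0.4), with overlap in both. Over all settings of depth, filter and limit the ratio ranged from 0.589, with a limit of 5 UMIs, to 0.993. Myelinating oligodendrocytes made up 10.7% ± 0.571 of nuclei kept in LPA and 15.8% ± 0.128 in vehicle (SD, n = 3 each), and after thinning to 2000 UMIs 13.8% ± 0.477 and 19.3% ± 0.761, with no overlap in either case. A share among lineage nuclei falls or rises with these other stages as well as with the members.

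**Figure D3:**
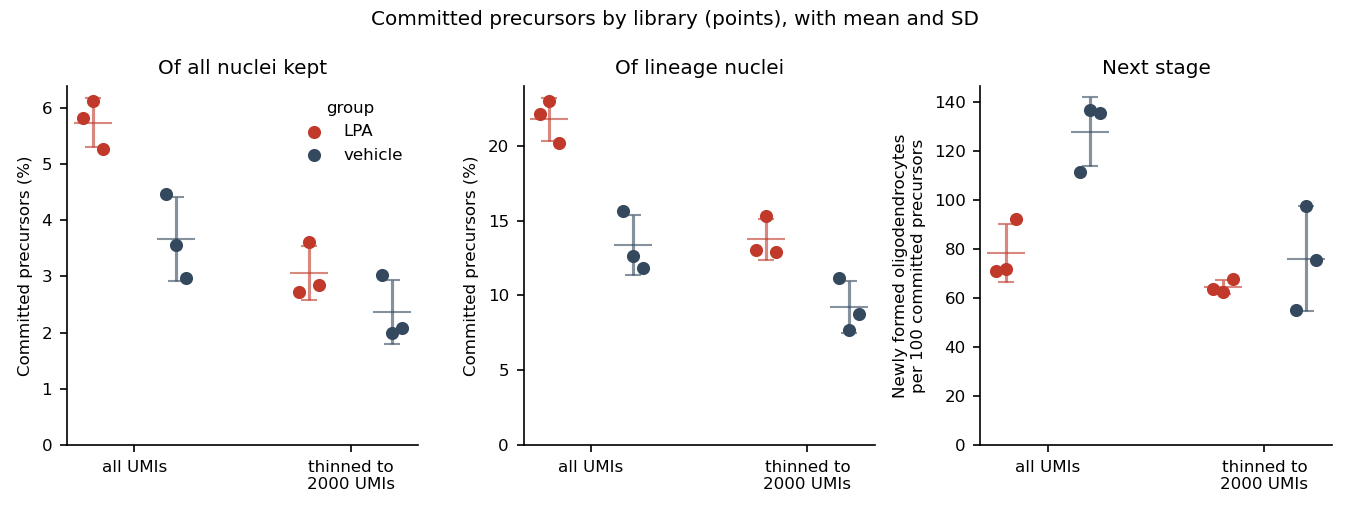
Committed precursors as a share of all nuclei kept and of lineage nuclei (%), and newly formed oligodendrocytes per 100 committed precursors, with all UMIs and after thinning each nucleus to 2000 UMIs. Points are libraries (LPA red, vehicle dark) and bars are mean and SD (n = 3 per group). With all UMIs the groups do not overlap in any panel, and after thinning they do not overlap in the share of lineage nuclei, with LPA at 12.9% to 15.3% and vehicle at 7.72% to 11.2%.

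The next question was whether the members stood at another point of the stage. After thinning, a UMI of Pdgfra was found in 32.2%, 28% and 27.6% of members in LPA and 38.1%, 32.9% and 20.8% in vehicle, a difference of -1.31 percentage points (exact permutation p = 0.9, 0.9 after adjustment over 3 genes). For Enpp6 the shares were 40.2%, 41.6% and 46.1% in LPA and 41.7%, 41.9% and 49.0% in vehicle (exact permutation p = 0.5, adjusted 0.75). For Mbp they were 58.8%, 67.7% and 65.6% in LPA and 63.9%, 65.7% and 72.6% in vehicle (exact permutation p = 0.5, adjusted 0.75). The groups overlapped for all 3 genes, and the spread between libraries was larger than the difference of their means. A UMI of Mbp was also held by 52.3% to 68.3% of thinned nuclei of the microglial gate and by 35.8% to 53.1% of thinned precursor cells. How much of the members' share is background was not tested.

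Expression was compared in UMIs summed over the committed precursors of each library. With the quasi-likelihood test of edgeR, 8 of 13195 genes were higher in LPA (0.0606%) and 4 were lower (0.0303%), where a call needed an adjusted p below 0.05 and a change of 0.25 or more on the log2 scale, in either direction. An unadjusted p below 0.05 was reached by 981 genes. The median log2 fold-change over all genes was -0.01. The genes higher in LPA were Gfap, Spp1, Gpnmb, Apobec1, Anapc15, Ttll8, Ide and Sfxn5, and the genes lower were mt-Co2, mt-Co3, mt-Nd2 and mt-Nd4. The number of calls moved both ways when single libraries were left out. Only 1 gene, Gfap, was called without vehicle 1, 2 genes without LPA 1 and 3 without LPA 2. By contrast, 15 were called without LPA 3, 24 without vehicle 2 and 27 without vehicle 3. Without Scrublet calls, Gfap, Ide and Sfxn5 were tested and not called (log2 fold-changes of 0.60, 0.52 and 0.27), the other 5 higher genes were too low to be tested, and the 4 lower genes were called.

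Gfap, the intermediate filament gene of astrocytes (chromosome 11, 102887336 to 102900912), stood at 33.0, 38.2 and 31.3 CPM in LPA and 9.501, 11.96 and 11.3 CPM in vehicle, a log2 fold-change of 1.64 ± 0.179 (SE, edgeR adjusted p = 0.00158). Every LPA library was above every vehicle library. The call was lost when Scrublet calls were left out (0.60, adjusted p = 0.825). Over all nuclei kept, Gfap stood at 56.7 CPM in LPA and 19.7 CPM in vehicle, so the members were at 59.6% and 55.2% of the level of the whole library, and the microglial gate, which should not read it, was at 31.4 CPM against 22.3 CPM in the members. The part of free Gfap RNA in the result was not tested. Of the 10 astrocyte markers, 3 (Aqp4, Aldh1l1 and Gfap) were higher in every LPA library and 2 (Gja1 and Agt) lower, with Gfap alone called, beside 6.64% and 6.34% of all genes tested that were higher or lower in every LPA library.

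Spp1 and Gpnmb are read by activated microglia and macrophages, Spp1 as the secreted protein osteopontin and Gpnmb as a membrane glycoprotein. In the members Spp1 stood at 8.84, 7.32 and 11.2 CPM in LPA and 1.06, 0.413 and 1.89 CPM in vehicle, 90 UMIs against 6 in all (log2 fold-change 3.09 ± 0.465 SE, edgeR adjusted p = 0.0217). Gpnmb stood at 17.4, 10.8 and 9.20 CPM in LPA and 3.17, 1.24 and 2.52 CPM in vehicle (2.48 ± 0.405 SE, edgeR adjusted p = 0.0273). Neither gene overlapped between the groups. The call of Spp1 was lost without LPA 1, vehicle 1 or vehicle 2 (edgeR adjusted p = 0.0630, 0.109 and 0.0578), and that of Gpnmb without LPA 1, LPA 2, vehicle 1 or vehicle 2 (edgeR adjusted p from 0.0529 to 0.109). Over all alternatives that tested them, the log2 fold-change ranged from 2.44 to 4.64 for Spp1 and from 2.11 to 2.81 for Gpnmb. Across all nuclei Gpnmb stood at 15.9 and 0.605 CPM and Spp1 at 13.1 and 6.50 CPM. The 12 microglial markers together summed to 826, 649 and 574 CPM in LPA members and 595, 778 and 601 CPM in vehicle members, so the summed level overlapped between the groups. Apoe alone gave 440 CPM of it, and none of the 12 was at 0. By single genes, 10 of the 12 had a log2 fold-change above 0, with a median of 0.35, and Spp1 and Gpnmb were the only calls. Whether microglial RNA in the droplets carries the 2 calls was not tested.

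The other genes that rose moved in the same direction in the whole library. Anapc15, a subunit of the anaphase-promoting complex, stood at 18.9, 20.1 and 19.4 CPM in LPA and 7.92, 5.36 and 6.93 CPM in vehicle, and at 26.5 against 8.37 CPM over all nuclei kept. Ide, the insulin-degrading enzyme, stood at 61.3, 68.0 and 64.0 CPM in LPA and 42.8, 41.3 and 43.5 CPM in vehicle, and at 71.3 against 45.9 CPM over all nuclei. Their log2 fold-changes were 1.55 ± 0.224 and 0.61 ± 0.108 (SE, edgeR adjusted p = 0.0217 and 0.0495). Apobec1, a cytidine deaminase that edits RNA (1.83 ± 0.320 SE, edgeR adjusted p = 0.0495), Ttll8, a tubulin glycylase (1.18 ± 0.186 SE, edgeR adjusted p = 0.0266), and Sfxn5, a mitochondrial carrier (0.48 ± 0.0861 SE, edgeR adjusted p = 0.0495), completed the group. The value of Sfxn5 ranged from 0.12 to 0.53 over the alternatives. None of the 8 was at a higher level in LPA members than in all nuclei of the LPA libraries, where Ide came nearest at 89.3%. In the vehicle libraries Gpnmb was higher in members than in all nuclei kept, at 2.30 against 0.605 CPM, on 13 UMIs in the members.

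The 4 genes that fell are encoded by mitochondrial DNA. mt-Co3, a subunit of cytochrome c oxidase, stood at 60.7, 70.7 and 127 CPM in LPA and 315, 166 and 289 CPM in vehicle (-1.58 ± 0.235 SE, edgeR adjusted p = 0.0217). mt-Co2, a subunit of the same complex, and mt-Nd2 and mt-Nd4 of complex I fell by 1.51, 1.45 and 1.58 on the log2 scale. The calls of mt-Co3, mt-Co2 and mt-Nd4 were lost with a sex covariate, with DESeq2, and without LPA 1, LPA 2 or vehicle 1, while their log2 fold-changes stayed between -2.02 and -1.25 in all alternatives. Nuclei hold no mitochondria, and the rule on nuclei removed those with over 1% mitochondrial UMIs. All 13 mitochondrial genes together made up 0.0259%, 0.0343% and 0.0637% of the members' UMIs in LPA and 0.143%, 0.0756% and 0.1196% in vehicle. Over all nuclei kept the share was 0.0245%, 0.0346% and 0.0548% in LPA and 0.103%, 0.0755% and 0.103% in vehicle, so the whole library moved in the same way.

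**Figure D4:**
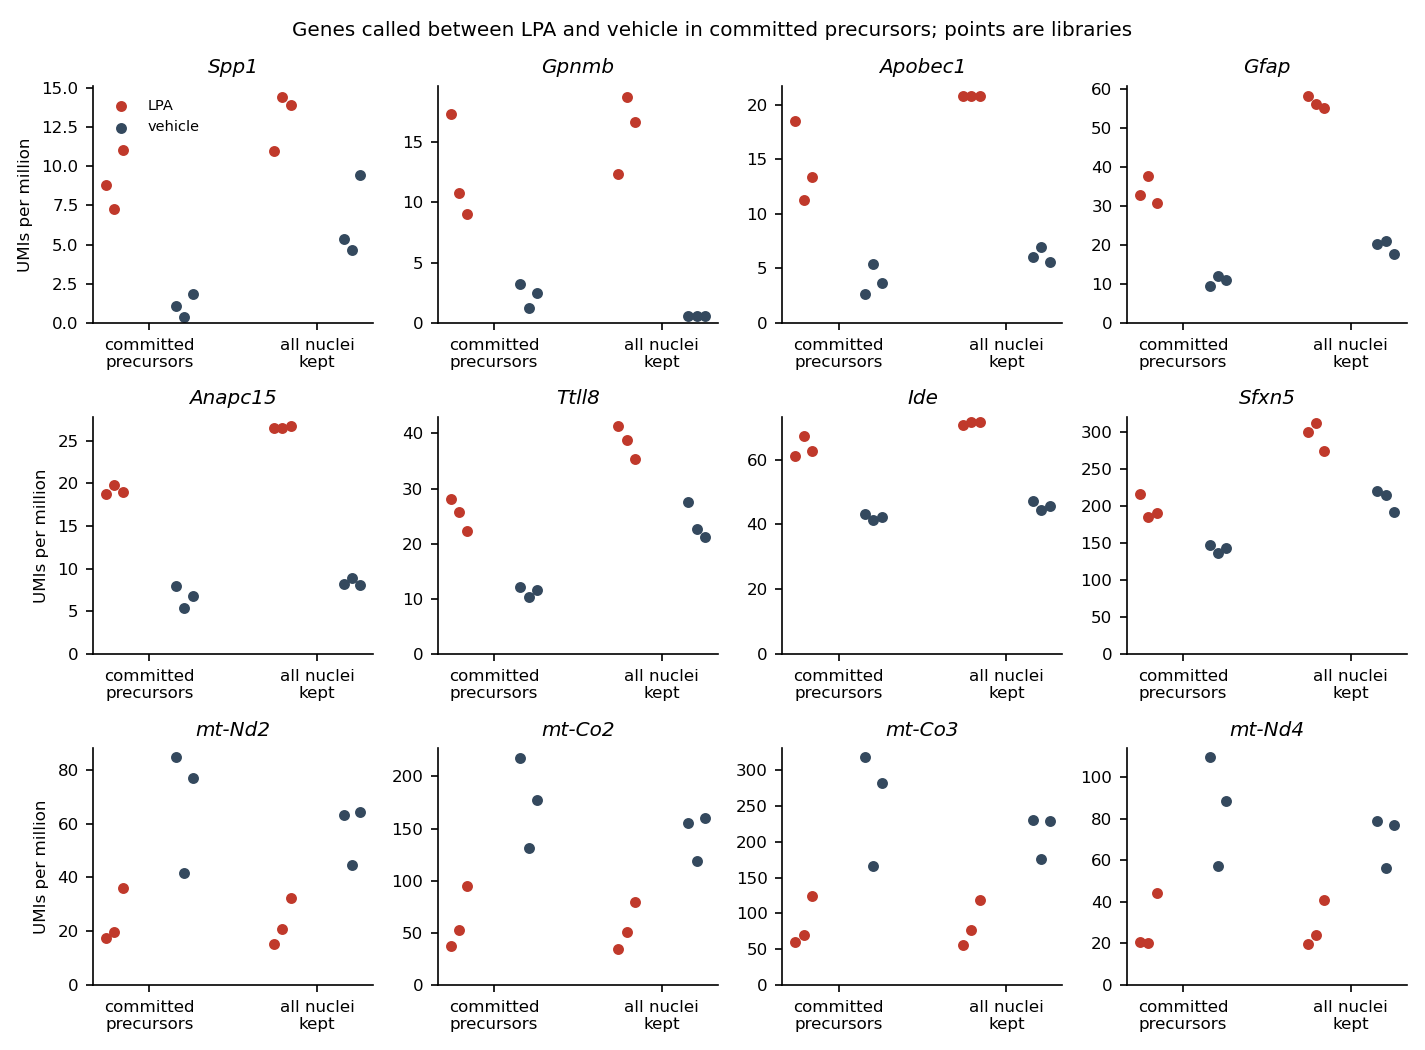
CPM (linear axes from 0, each gene with its own scale) of the 12 genes called between LPA and vehicle in committed precursors, in the members and in all nuclei kept of the same library. Points are libraries (LPA red, vehicle dark, n = 3 each). All 12 genes move in the same direction in all nuclei kept as in the members.

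No gene of the lineage lists passed the test. None of 19 precursor genes, 23 genes of committed precursors, 19 of newly formed oligodendrocytes and 19 myelin genes tested was called. Beside the same background of 6.64% of all genes higher and 6.34% lower in every LPA library, 4 of the 19 precursor genes (Ptprz1, Lhfpl3, Sox5 and Dscam) were higher in every LPA library and none lower, with a median log2 fold-change of 0.08. Lhfpl3, for example, stood at 2337, 2305 and 2256 CPM in LPA and 2201, 2152 and 1830 CPM in vehicle. Of the genes of the stage itself, Lmtk2 was higher, Sox4 and Marcks were lower in every LPA library, and the median was -0.07. Among the 15 genes with the highest ratio to the neighboring stages none was called, and Arhgap24 and Nkx2-2 had log2 fold-changes of 0.02 and 0.00.

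No myelin gene was called. Of 19 tested, 17 had a log2 fold-change below 0, with a median of -0.32 and no call. Of the 19, 8, Mobp, Aspa, Mal and Tspan2 among them, were lower in every LPA library, beside 6.34% of all genes tested. Mobp stood at 67.2, 85.4 and 89.9 CPM in LPA and 105, 144 and 144 CPM in vehicle (-0.70 ± 0.132 SE, edgeR adjusted p = 0.0540), just short of the threshold. It was called in 6 of 19 alternatives, among them the fits with a sex covariate and with DESeq2. Beside this, vehicle libraries held more myelinating nuclei, as given above, and Mobp over all nuclei kept stood at 888 CPM in LPA and 1154 CPM in vehicle. Its part in the members' myelin RNA was not tested.

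Among other lists, 25 genes of cholesterol and fatty acid synthesis had a median of 0.15, with 21 above 0 and none called. Of these, 4, Srebf2, Mvd and Acaca among them, were higher in every LPA library, beside 6.64% of all genes tested. Of 13 glucocorticoid response genes, with a median of -0.17, 3 (Fkbp5, Zbtb16 and Ddit4) were lower in every LPA library, beside 6.34% of all genes tested. Fkbp5, a chaperone of the glucocorticoid receptor, stood at 73.3, 59.4 and 55.5 CPM in LPA and 77.1, 100.2 and 100.8 CPM in vehicle (edgeR adjusted p = 0.148). Of 12 interferon response genes, with a median of 0.32, 3 (Ifit2, Parp14 and H2-K1) were higher in every LPA library, beside 6.64% of all genes tested. The means of these 3 in LPA were 8.95 CPM or less, the value of H2-K1. Medians of the lists for Notch (21 genes), Wnt (26), BMP and TGF-beta (27), growth factor receptors (28) and guidance and adhesion (45) lay between -0.03 and 0.04, with no call in any of them. In the BMP list, the receptor gene Bmpr1b stood at 89.6, 80.8 and 76.3 CPM in LPA and 51.7, 63.1 and 50.4 CPM in vehicle (0.56, edgeR adjusted p = 0.0930), which was called in 3 of 19 alternatives, and its sign turned without Scrublet calls (-0.14).

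Of the markers of meningeal cells none was called among the 8 that could be tested. All 8 had a log2 fold-change below 0, with a median of -0.93. Of the 8, 4 (Col1a1, Col1a2, Dcn and Aox3) were lower in every LPA library, beside 6.34% of all genes tested. The 10 markers summed to 185, 106 and 128 CPM in LPA members and 174, 264 and 249 CPM in vehicle members, and to 398, 502 and 376 CPM against 739, 765 and 815 CPM over all nuclei kept. The sums overlapped in the members and did not over all nuclei. Their most abundant gene in the members was Ranbp3l at 41.4 CPM, and none was at 0. The neuronal markers, led by Meg3, summed to 3010 CPM in LPA and 3217 CPM in vehicle members, and the endothelial markers, led by Flt1, to 185 and 203 CPM.

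LPA acts through receptors encoded by Lpar1 to Lpar6 and is made outside cells by autotaxin, the product of Enpp2. Lpar1, with 664 UMIs over all members, stood at 41.2, 36.3 and 38.5 CPM in LPA and 37.0, 47.0 and 58.6 CPM in vehicle (-0.28, edgeR adjusted p = 0.711). It rose along the lineage, from 20.9 CPM in precursor cells to 42.7 CPM in committed precursors and 326 CPM in newly formed oligodendrocytes. Lpar6 had 96 UMIs over all members, Lpar4 87, Lpar3 55, Lpar2 14 and Lpar5 2. Enpp2 stood at 354, 373 and 403 CPM in LPA and 346, 349 and 397 CPM in vehicle (0.05, edgeR adjusted p = 0.942), where the groups overlapped. None of the 7 genes of LPA signaling that could be tested was called or free of overlap.

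**Figure D5:**
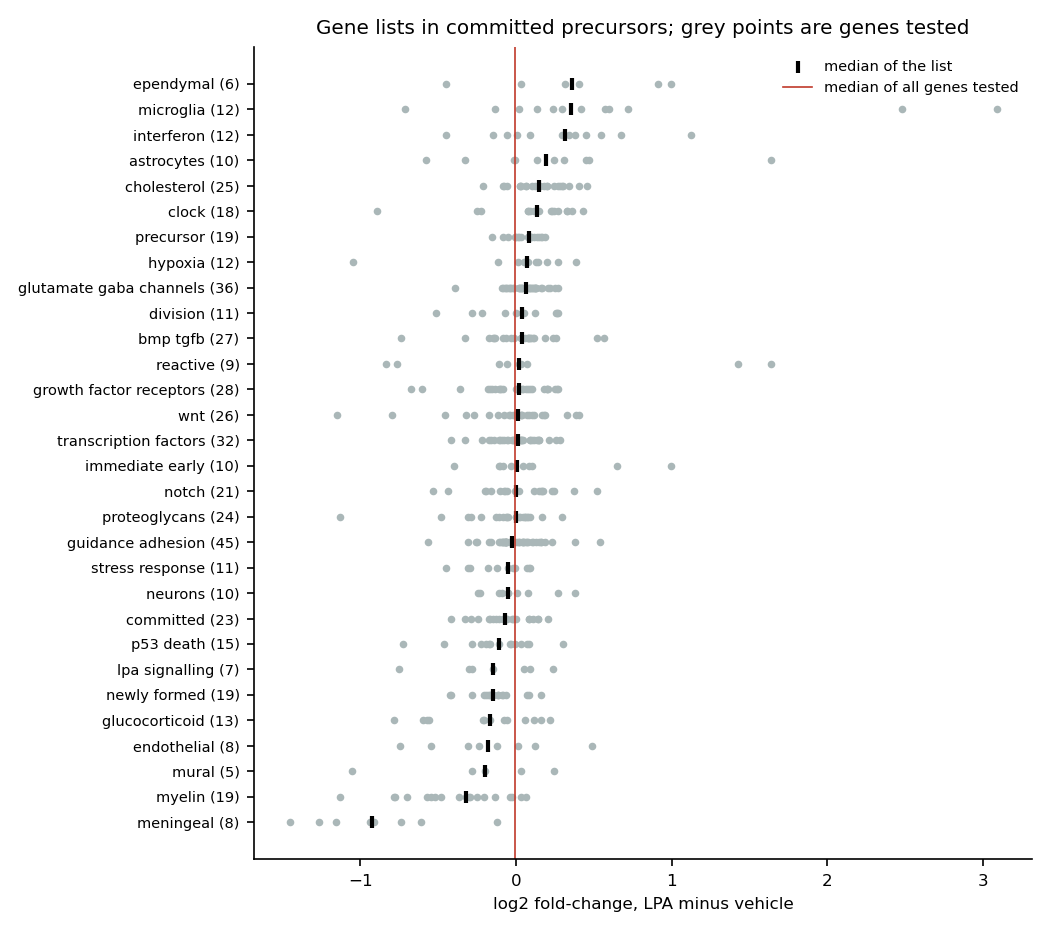
Log2 fold-change between LPA and vehicle in committed precursors for the genes of each list other than the sex-linked genes (grey points, number of genes tested in brackets), with the median of the list (black) and of all 13195 genes tested (red line). Medians run from -0.93 for meningeal markers and -0.32 for myelin genes to 0.36 for ependymal markers, and the 2 microglial genes on the far right are Spp1 and Gpnmb.

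Finally, the LPA effect in committed precursors was set against the effect in the stages beside it, in 1 model over both stages with the library as a block. Against precursor cells, 1 of 13527 genes was called (0.00739%), Zfp804b, a zinc finger gene. Zfp804b stood at 128, 105 and 121 CPM in LPA and 73.9, 174 and 199.7 CPM in vehicle committed precursors. In precursor cells it stood at 199.8, 167 and 175 CPM in LPA and 86.0, 151 and 195 CPM in vehicle. The effect in committed precursors was lower by 0.68 ± 0.119 on the log2 scale (edgeR adjusted p = 0.0288), while within each stage the groups overlapped. The next genes were 4930555F03Rik, Eya2, Neat1 and Cldn5, none of them called. Against newly formed oligodendrocytes 0 of 13899 genes were called by edgeR, with 766 at an unadjusted p under 0.05 and the lowest adjusted p, 0.0662, shared by Dlgap2, Slit2, Cpa6, Neat1 and Neto1. Slit2, a secreted guidance ligand, stood at 112, 92.7 and 102 CPM in LPA and 139, 173 and 138 CPM in vehicle committed precursors, a log2 fold-change of -0.56, against 0.18 in newly formed oligodendrocytes. By Xist and Y-linked genes, 1 LPA library (LPA 1) and 2 vehicle libraries (vehicle 1 and vehicle 3) were male and the rest female.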

How the data were processed

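Per the labels and methods, the authors used Cell Ranger 4.0.0 with a pre-mRNA reference of mm10. The deposited matrices hold raw UMI counts of 32285 genes per barcode, with no normalization. Total UMIs per library ranged from 48852970 to 65688644. Nuclei with at least 300 genes and at most 1% mitochondrial UMIs were kept. Members and gene lists were chosen with earlier results of these data known, so counts over the lists are descriptions. CPM are counts per 1000000 UMIs of a gate, and those of the LPA comparison were also scaled with TMM factors. UMIs of the members were summed per library, the 10 genes of the rule were left out, and edgeR 4.0.16 (R 4.3.3) was run (quasi-likelihood test, TMM scaling, low genes removed by filterByExpr). P-values were adjusted by Benjamini-Hochberg over all genes tested. On simulated counts for the LPA comparison, with 13203 genes, it called 18.5% of genes changed by 0.5 and 80.5% of those changed by 1 (log2). It made 2 and 8 false calls in these runs. The simulation gave all genes 1 common dispersion, so its rates may not hold for the real libraries. Shares were compared by two-sided exact permutation tests with 20 assignments. P-values measure the spread between libraries, which differed within a group by more than sampling noise (chi-square per degree of freedom 1.73 to 3.62). Thinning drew UMIs without replacement with seed 1, leaving out shallower nuclei. Scrublet was run per library (scanpy 1.11.5, expected rate 0.08). Genes named were those of the rule, those called, those of fixed lists, the 15 with the highest ratio to the neighboring stages, the 5 of lowest p in each interaction, LPA receptor genes with Enpp2, and sex-linked genes. Kcnip3, Gm13187 and St18 were picked after their values were seen. Alternatives were other filters, limits of the rule, scalings and tools (DESeq2 1.42.0), thinning, equal numbers of nuclei, a sex covariate, a replicate block, and leaving out each library.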

Additional observations from a re-analysis of the deposited data

Results flagged for a closer look

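The LPA effect on Zfp804b differed between committed precursors and precursor cells, by -0.68 on the log2 scale (edgeR adjusted p = 0.0288, test of the difference itself, 3 libraries per group). Its log2 fold-change was -0.34 in committed precursors and 0.32 in precursor cells, neither called. Vehicle 1 lay well below the other vehicle libraries in both stages, at 73.9 against 174 and 199.7 CPM in committed precursors and 86.0 against 151 and 195 CPM in precursor cells, so the values within each stage depend on it. Without vehicle 1 the difference between the stages was -0.75 (edgeR adjusted p = 0.0193). The difference kept its sign in all 10 alternatives, from -1.08 to -0.58, and passed the threshold in 4. It did not pass without LPA 1, LPA 2, LPA 3 or vehicle 2, without Scrublet calls, or with the replicate block. Groups of 3 libraries are too small to look for a single library far from the others.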

How the results depend on the processing

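Depth limits these results: shares of nuclei move with UMIs per nucleus, and genes under about 10 CPM rest on few UMIs. The difference kept its sign in all 16 alternatives for the 2 shares, members per 100 precursor cells, and newly formed oligodendrocytes per 100 members. The sizes moved, however. At 1000 UMIs per nucleus the last of them shrank from -49.7 to -0.47, and the share among nuclei kept from 2.07 to 0.146 percentage points. For members per 100 precursor cells the difference grew from -13.6 to -59.8 at 3000 UMIs, with overlap. Thinning to 1000 and 3000 UMIs and a limit of 2 UMIs after thinning were chosen after seeing the data.
The shares of members with a UMI turned in sign when nuclei were not thinned, for Pdgfra (1.07 percentage points) and Enpp6 (1.54), and ranged over left-out libraries from -6.22 to 2.44 for Pdgfra and from -3.32 to 0.83 for Enpp6.
The 12 calls between the groups became 48 with a limit of 2 UMIs, 183 without a filter on low counts, 51 with an upper limit on UMIs, 5 without Scrublet calls (0 higher, 5 lower), 7 with a sex covariate and 7 after thinning to 2000 UMIs (0 higher, 7 lower). They ranged from 1 without vehicle 1 to 27 without vehicle 3, with 2 without LPA 1, 3 without LPA 2 and 24 without vehicle 2. DESeq2 gave 15, and other size factors 8. The cause of these moves was not tested.
Calls in the interaction with precursor cells, 1 in the main model, became 12 without a filter, 0 without Scrublet calls and 0 with the replicate block, and ranged from 0 to 4 over left-out libraries. Those with newly formed oligodendrocytes, 0, became 65 without a filter and 1 without Scrublet calls, and ranged from 0 to 5.
Mobp, not called in the main model, was called in 6 of 19 alternatives, with the replicate block (-0.70, adjusted p = 0.0170 by edgeR) among them. Bmpr1b, not called either, was called in 3 of 19 and turned to -0.14 without Scrublet calls. No called gene changed sign in any alternative that tested it. Ide and Sfxn5 were called in 4 of 19, Apobec1 in 6 of 17, mt-Nd2 in 8 of 19, Ttll8 in 11 of 17, Gpnmb in 12 of 17, Anapc15 in 13 of 17, Spp1 in 13 of 16, mt-Co2, mt-Co3 and mt-Nd4 in 14 of 19, and Gfap in 17 of 18.
Replicate numbers did not pair the libraries, with correlations of same-numbered libraries of 0.06, 0.07 and -0.03. With the replicate block 14 genes were called in committed precursors.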
